A study of Homo sapiens with 4 samples.

Results

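Mesenchymal transition factors are DNA-binding proteins that repress epithelial genes and switch on genes of motile cells, and vimentin is the intermediate filament protein of mesenchymal cells. The zinc finger proteins ZEB1, ZEB2, SNAI1 and SNAI2 repress E-cadherin by binding E-box sequences in DNA, TWIST1 and TWIST2 are basic helix-loop-helix factors, and PRRX1 is a homeobox factor of the limb and facial mesenchyme. Melanocytes derive from the neural crest, whose cells use several of these factors when they leave the neural tube. In melanoma, ZEB2 and SNAI2 are known as factors of pigmented, differentiated cells, and ZEB1 and TWIST1 as factors of dedifferentiated cells. The 7 transcription factors and VIM were taken by name, each as the row of the count table whose symbol equals it. All 8 had exactly 1 row among the 56304 genes, and all 8 were among the 15529 genes that passed a filter on low counts.

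The RNAseq data came from MV3, an established human melanoma line that carries the nuclear marker H2B-GFP in every sample. Spheroids of 50000 cells were kept in collagen I for 2 days. A 1 mm punch then took the core, and a 3 mm punch took the ring of invaded matrix around it, called the invasion zone. Each zone had 2 libraries, numbered 1 and 2, and no treatment was given. The zones were defined by position but differed in other ways too. The core was taken and frozen before the invasion zone was punched, and the paper reports more cells in S/G2/M phase in the invasion zone. Because the punches entered from the top, the core samples may also hold invaded cells from over and under the spheroid. All libraries come from a single cell line. Whether the libraries came from separate cultures is not given in the sources used here, and the p-values measure the spread between these libraries, which may be technical.

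The libraries held between 11789243 and 37591782 counts, and both replicate 1 libraries were deeper than both replicate 2 libraries. Values are given as normalized CPM, the counts of a gene relative to its library's total after TMM scaling, which evens out differences in composition. The labelled cell type was checked against 9 melanocyte lineage markers. PAX3 was present at 31.0 to 36.4 CPM and MITF, the master factor of the melanocyte lineage, was low at 1.71 to 3.37 CPM. SOX10 and TYR had 0 counts in all 4 libraries, where a count of 0 allows at most 3 counts or 0.0801 to 0.252 CPM. PMEL, MLANA, TYRP1, DCT and S100B did not exceed 1.01 CPM in any library, so that most defining markers of the pigmented lineage were at or near 0. Of 12 markers of other cell types, 10 stayed under 1 CPM in every library and 2 did not, CD14 and PECAM1, and the summed level of the 12 was 9.09 to 20.5 CPM in the core and 1.43 to 6.35 CPM in the invasion zone. The part of these markers in the zone differences was not tested. Low levels of a gene are common here, as 15529 of all 56304 genes passed the filter on low counts.

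ZEB1 and ZEB2 are the classic targets of the miR-200 family of microRNAs, which pair with their 3′ untranslated regions through bases 2 to 8, the seed. The 5 mature arms are shown because matches to both of their seeds occur in this pair and in no other member. They are taken from RefSeq on GRCh38.p14, and the capitals mark the seed. Those of miR-200b and miR-200c and miR-429 share 1 seed, and those of miR-200a and miR-141 share another that differs in a single base.
hsa-miR-200b-3p: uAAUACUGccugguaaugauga
hsa-miR-200c-3p: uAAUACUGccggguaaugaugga
hsa-miR-429: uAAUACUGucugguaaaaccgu
hsa-miR-200a-3p: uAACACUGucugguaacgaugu
hsa-miR-141-3p: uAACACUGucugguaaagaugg

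A match to the first seed (CAGTATT on the transcript) occurred 6 times in the 2540 bases of the 3′ untranslated region of the canonical ZEB1 transcript and 5 times in the 5370 bases of ZEB2. A match to the second seed (CAGTGTT) occurred 3 times in ZEB1 and 4 times in ZEB2. Across the 19538 canonical protein-coding transcripts with such a region, 16.1% held the first and 18.2% the second, at 0.118 and 0.134 matches per kilobase against 2.36 and 1.18 in ZEB1 and 0.931 and 0.745 in ZEB2. SNAI2 held 1 match to the first seed in 1209 bases, or 0.827 per kilobase, near the value of ZEB2, and 0 to the second. SNAI1, TWIST1, TWIST2, PRRX1 and VIM held none of either. For each gene the site nearest to the stop codon for the first seed is shown, in the transcript's direction with the match in capitals, at chr10:31527618-31527640 on the plus strand for ZEB1 and chr2:144389052-144389074 on the minus strand for ZEB2 of GRCh38.
ZEB1: attgttttatcttatCAGTATTa
ZEB2: cgcactaccatacatCAGTATTt

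These letters describe the transcripts and do not show that a site is used. The hairpin rows MIR200A, MIR200B, MIR200C, MIR141 and MIR429 had 0 counts in all 4 libraries, but the kit primes cDNA on poly(A) tails, so that these rows do not measure mature microRNAs.

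To ask which of the factors this melanoma line used at all, levels were compared per length, as TPM (transcript counts divided by length and scaled to a common total) from the union of each gene's exons in GENCODE release 44, since a long gene collects more reads than a short one. VIM was the most abundant at 1590 ± 254 (SD, n = 4 libraries) and ranked 45 of the 15395 tested genes with a known length. Among the factors, SNAI2 had 130 ± 6.58, TWIST2 had 110 ± 27.1, ZEB1 had 73.3 ± 2.85 and TWIST1 had 47.0 ± 12.3. PRRX1 followed with 12.9 ± 1.4, ZEB2 with 5.41 ± 0.674 and SNAI1 with 1.89 ± 0.402. The ranges over the 4 libraries overlapped only between SNAI2 (121 to 136) and TWIST2 (78.1 to 144), and every other neighbour in this order kept its place in 4 of 4 libraries. SNAI2 and TWIST2 together made up most of the summed level of the 7 factors, with 31.6 to 39.3% for SNAI2 and 22.9 to 33.8% for TWIST2, and SNAI1 made up 0.372 to 0.558%.

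**Figure D1:**
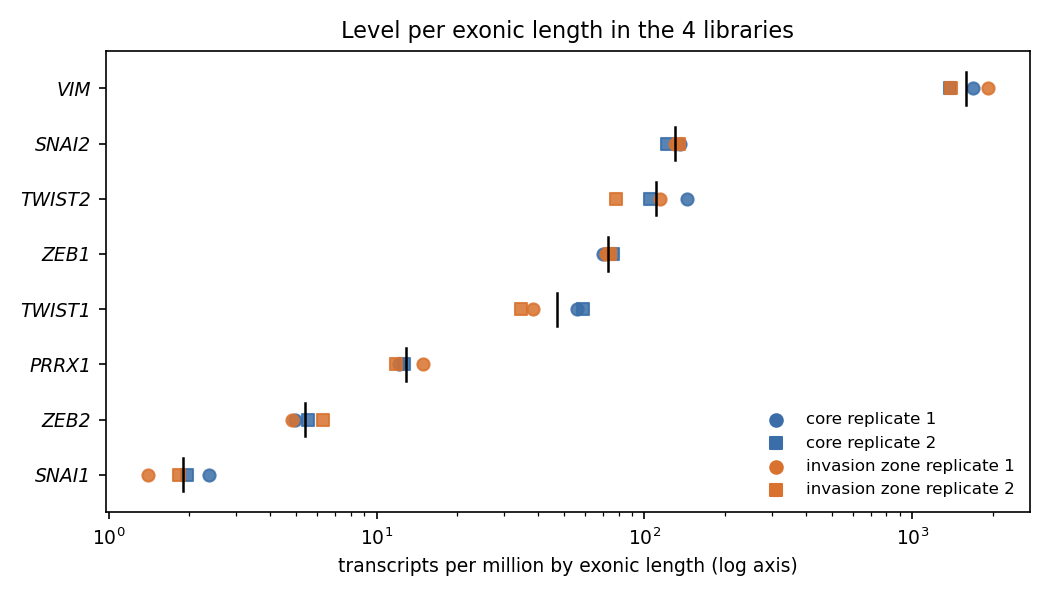
Level of each gene per exonic length, in TPM on a log axis, with 1 point for each of the 4 libraries and a black line at their mean. VIM (mean 1590) stands far above the 7 factors, SNAI2 and TWIST2 overlap, and SNAI1 (mean 1.89) is the lowest.

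In each family of paralogs 1 member prevailed. ZEB1 exceeded ZEB2 by 11.8 to 14.8 times per length, and by 6.10 to 7.66 times when the canonical transcript was used in place of all exons, because the annotated exons of ZEB2 sum to 26151 bases and its canonical transcript to 9265. SNAI2 exceeded SNAI1 by 57.2 to 92.8 times, or 86.1 to 140 times with the canonical transcript. TWIST2 exceeded TWIST1 by 1.78 to 2.99 times, or 2.31 to 3.88 times with the canonical transcript. The mean level of ZEB2 was 8.70 TPM and that of SNAI1 1.08 TPM on the canonical length, a move of over 1.5 times for both. SNAI1 has 1705 bases by both measures, so its move came from the scaling of all genes to a common total. The order of the 8 genes was the same with the canonical transcript. Only SNAI1 was near the detection limit, with 36 and 12 counts in core replicates 1 and 2 and 22 and 9 in those of the invasion zone. It was also the only gene of the 8 below 1 CPM in any library, so that 7 of 8 counted as expressed by a limit of 1 CPM in every library.

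Next, both zones were compared to see which of these genes differed between invading cells and cells that had stayed. The main test was edgeR's quasi-likelihood test on the counts without a replicate term, with p-values adjusted by the Benjamini-Hochberg method over all 15529 genes, and calls needed both an adjusted p under 0.05 and at least a 2-fold change. None of the 8 genes was called, against 0% of all genes tested, since the test called none. In bulk samples fewer cells of a type and less RNA per cell cannot be told apart. For 2 of the 8 genes, TWIST1 and SNAI1, the higher invasion zone library was still lower than the lower core library, and for 0 of 8 the order was the opposite, while 30.3% of all tested genes lay below and 28.1% above. The median log2 fold change of the 8 was 0.03, beside -0.01 over all genes tested.

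**Figure D2:**
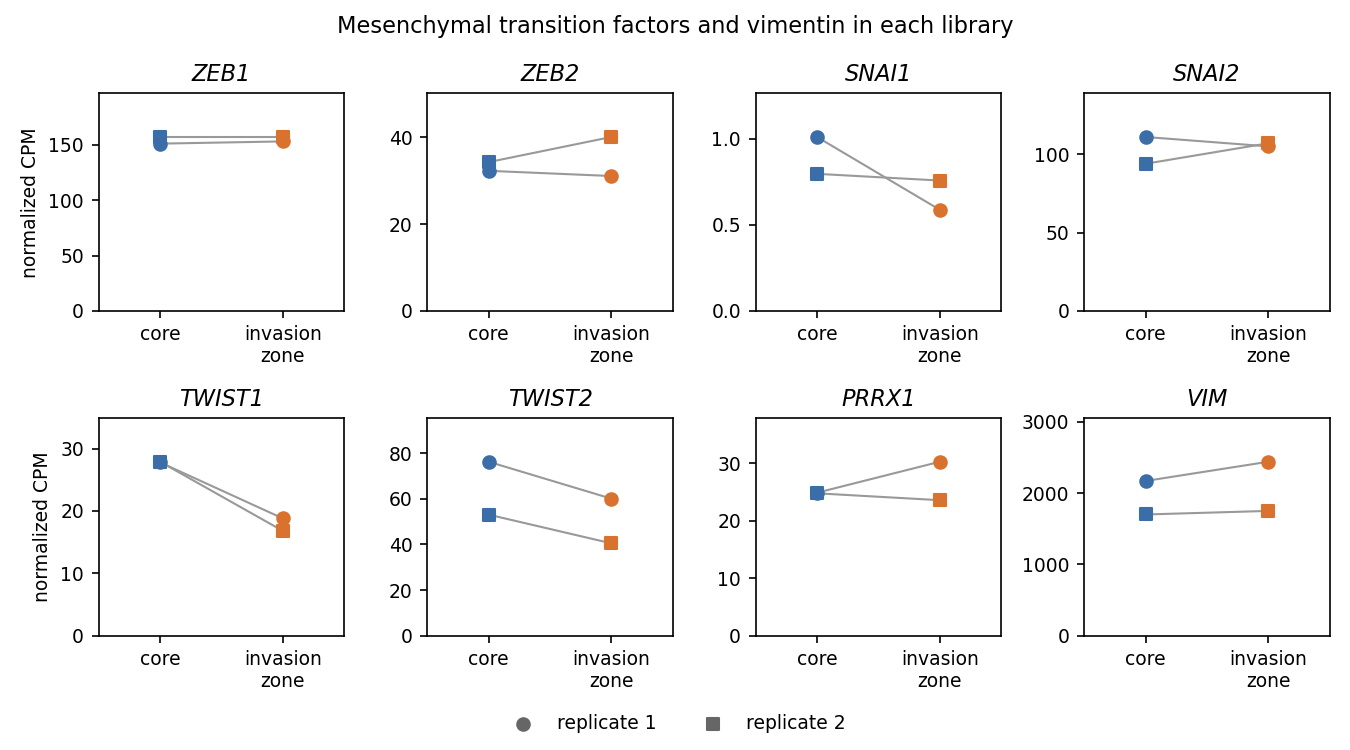
Normalized CPM of each gene in the core (blue) and the invasion zone (orange), with grey lines joining libraries of the same replicate number (circles 1, squares 2) and each axis starting at 0. TWIST1 is lower in both invasion zone libraries than in both core libraries, TWIST2 is lower within each replicate, and ZEB1 is level.

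TWIST1, a factor of the cranial mesenchyme, had the largest difference of the 8. It had 27.8 and 27.9 CPM in core replicates 1 and 2, and 18.8 and 16.8 CPM in invasion zone replicates 1 and 2. The zones did not overlap, and the core was 1.47 times higher within replicate 1 and 1.66 times higher within replicate 2. Its log2 fold change (invasion zone relative to core, as for all values here) was -0.64 (standard error 0.16, 95% interval -1.05 to -0.23), or 0.64-fold, with an unadjusted p of 0.00976 and an adjusted p of 0.135 in edgeR's quasi-likelihood test. TWIST1 was the only gene of the 8 at an unadjusted p under 0.05, a limit that 12.4% of all genes tested passed as lower and 11.9% as higher.

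TWIST2, which is found in dermal mesenchyme and is closely related to TWIST1, differed by replicate as well as by zone. It had 76.3 and 53.1 CPM in the core libraries and 60.1 and 40.5 CPM in the invasion zone libraries, so that the zones overlapped. Within a replicate the core was higher, by 1.27 times in replicate 1 and 1.31 times in replicate 2. Replicate 1 exceeded replicate 2 by 1.44 times in the core and 1.49 times in the invasion zone, more than the zones differed. The log2 fold change was -0.36 (95% interval -1.04 to 0.32, adjusted p = 0.456 in edgeR).

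A second fit took the replicate number as a block, which compares the zones within each replicate. The protocol takes the core and then the invasion zone that belongs to it from a dissected spheroid, but whether same-numbered libraries share a spheroid, a batch or a day is not given in the sources used here. With the block, TWIST1 had a log2 fold change of -0.64 (standard error 0.12, adjusted p = 0.00382) and TWIST2 one of -0.37 (standard error 0.09, adjusted p = 0.0139) in edgeR. Both were under 2-fold and neither was called, where 3.41% of all genes were called higher and 7.06% lower. Without the fold minimum, a choice made after seeing the data, 2 of 8 genes passed as lower and 0 as higher, beside 19.4% of all genes lower and 19.4% higher. The share of the 8 genes that passed as lower was thus near that of all genes. TWIST2 did not pass in DESeq2 with the same block (adjusted p = 0.0658). Nor did it pass in the blocked edgeR fit corrected for GC content and length (adjusted p = 0.159). In limma voom with the block it did (adjusted p = 0.00934). TWIST1 passed in all of these (adjusted p = 0.0138, 0.00421 and 0.00271 in the same order). Without the fold minimum, the corrected fit passed 3994 genes as higher and 2702 as lower, against 3010 and 3009 in the blocked edgeR fit without the correction.

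ZEB1, the most abundant of the 7 factors after SNAI2 and TWIST2, had the smallest difference of the 8. It had 151 and 157 CPM in the core libraries and 153 and 157 CPM in the invasion zone libraries. The ratio of the invasion zone to the core was 1.01 within replicate 1 (exact 95% interval 0.97 to 1.05, for counting error only) and 1.00 within replicate 2 (0.94 to 1.06). Over the 4 libraries the fold was 1.01, with a 95% interval from 0.80 to 1.26, so that a 2-fold change in either direction lay outside it.

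ZEB2, whose protein binds the same E-boxes, had 32.3 and 34.3 CPM in the core and 31.1 and 40.1 CPM in the invasion zone. The replicates went opposite ways, with an invasion zone to core ratio of 0.96 in replicate 1 and 1.17 in replicate 2, and the log2 fold change was 0.09 (95% interval -0.36 to 0.55, adjusted p = 0.791). SNAI2, also known as Slug and needed for melanocyte development, had 111 and 93.9 CPM in the core and 105 and 107 CPM in the invasion zone. Its ratio was 0.95 in replicate 1 and 1.14 in replicate 2, and its log2 fold change was 0.05 (95% interval -0.32 to 0.42, adjusted p = 0.872). For both genes the zones overlapped.

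SNAI1, also known as Snail, was too sparse to compare closely. It had 1.01 and 0.796 CPM in the core and 0.587 and 0.757 CPM in the invasion zone, without overlap of the zones. The ratio of the invasion zone to the core was 0.58 in replicate 1 (exact 95% interval 0.33 to 1.02) and 0.95 in replicate 2 (0.35 to 2.46). Its log2 fold change of -0.46 had a 95% interval from -1.75 to 0.82 (adjusted p = 0.619), so that a 2-fold lower level in the invasion zone lay inside the interval and a 2-fold higher level outside it.

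PRRX1 had 24.9 and 24.8 CPM in the core and 30.3 and 23.6 CPM in the invasion zone. Invasion zone replicate 1 was the highest and replicate 2 the lowest of the 4 libraries, with ratios to the core of 1.22 and 0.95. The log2 fold change was 0.12 (95% interval -0.34 to 0.59, adjusted p = 0.725).

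VIM had 2170 and 1700 CPM in the core and 2440 and 1750 CPM in the invasion zone, so that replicate 1 was higher in both zones, by 1.28 times in the core and 1.39 times in the invasion zone. Within the replicates the invasion zone to core ratio was 1.12 (exact 95% interval 1.11 to 1.14) and 1.03 (1.01 to 1.05), intervals that cover counting error only. The log2 fold change was 0.12 (95% interval -0.46 to 0.70, adjusted p = 0.796), and 0.11 with the block (95% interval -0.06 to 0.28, adjusted p = 0.278). After a correction for GC content and transcript length within the blocked edgeR fit the log2 fold change was 0.25 (adjusted p = 0.0150). In that corrected fit the median log2 fold change over all genes was 0.07, and without the fold minimum more genes passed as higher (3994) than as lower (2702).

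**Figure D3:**
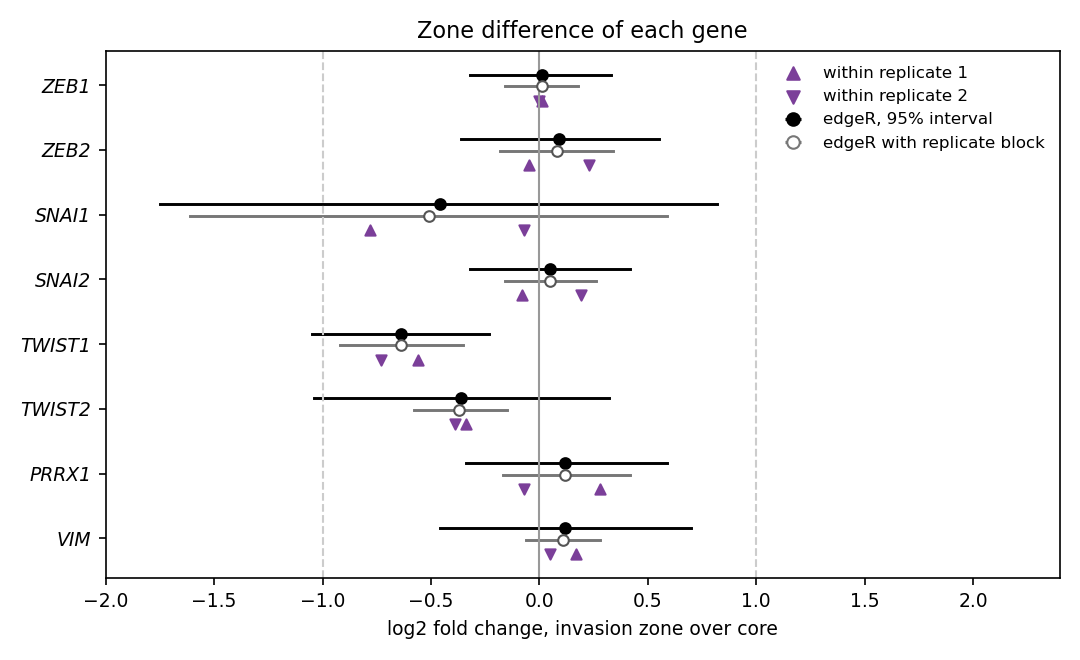
Invasion zone relative to core, as log2 fold change, for each gene from edgeR without (black) and with (open circles) the replicate block, with 95% intervals, and the ratio within each replicate (purple triangles). Dashed lines mark 2-fold. TWIST1 lies at -0.64 in both fits, and the intervals of TWIST2 reach past 0 without the block and stay below it with the block.

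The genes lie on several chromosomes of GRCh38. ZEB1 (ENSG00000148516) is on chromosome 10 from 31318495 to 31529814 and VIM (ENSG00000026025) on the same chromosome from 17228241 to 17237593. ZEB2 (ENSG00000169554) is on chromosome 2 from 144364364 to 144521057 and TWIST2 (ENSG00000233608) on the same chromosome from 238848032 to 238910534. TWIST1 (ENSG00000122691) is on chromosome 7 from 19020991 to 19117636, SNAI1 (ENSG00000124216) on chromosome 20 from 49982980 to 49988886, PRRX1 (ENSG00000116132) on chromosome 1 from 170662728 to 170739421 and SNAI2 (ENSG00000019549) on chromosome 8.

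Several of these genes share exonic bases with antisense RNAs, and the strand setting of the counting is not given in the sources used here, so that reads from the shared bases cannot be told apart. VIM shares 656 of its 5176 exonic bases with VIM-AS1, ZEB1 shares 396 of 8650 with ZEB1-AS1, ZEB2 shares 1299 of 26151 with ZEB2-AS1, and TWIST1 shares 141 of 1997 with an RNA listed as AC003986.6. VIM-AS1 had 6.20 and 8.36 CPM in the core and 9.50 and 13.6 CPM in the invasion zone, above the core in both libraries. Its log2 fold change was 0.67 (95% interval -0.07 to 1.4, adjusted p = 0.235), and 0.66 with the block (adjusted p = 0.0180). ZEB1-AS1 had 11.4 and 13.2 CPM in the core and 12.3 and 17.1 CPM in the invasion zone, with an adjusted p of 0.563. ZEB2-AS1 had 4 counts in the 4 libraries together, and AC003986.6 had 66.

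Genes that act beside these factors were then described from 9 lists of related genes, as counts and medians with no test of a list. The main test called 0 genes in each of the 9 lists, so the counts given here are those of genes called with the replicate block (edgeR, adjusted p under 0.05 and at least 2-fold), where 3.41% of all genes were higher and 7.06% lower.

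Among 20 other factors linked to mesenchymal transition, 15 were tested, with a median log2 change of 0.05, and 2 were called higher and 1 lower with the block. FOXC2, a forkhead factor, had 7.15 and 12.3 CPM in the core and 18.7 and 23.8 CPM in the invasion zone, with a log2 fold change of 1.13 (adjusted p = 0.145, and 0.000693 with the block). FOSL1, an AP-1 subunit and the most abundant of the list per length, had 223 and 326 CPM in the core and 501 and 619 CPM in the invasion zone, with a log2 fold change of 1.03 (adjusted p = 0.131, and 7.89e-05 with the block). SOX4, a factor of progenitor cells, had 132 and 123 CPM in the core and 50.5 and 52.3 CPM in the invasion zone, with a log2 fold change of -1.31 (adjusted p = 0.128, and 5.79e-05 with the block). The zones did not overlap for any of these 3. SNAI3, the remaining Snail family member, reached at most 0.95 CPM, with a log2 fold change of -1.25 and an adjusted p of 0.246. SOX9 was the next most abundant per length, with 123 to 164 CPM and a log2 fold change of 0.02.

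The epithelial genes listed as repressed by these factors were mostly at or near 0. Low levels are common among all genes, of which 15529 of 56304 passed the filter on low counts, and 9 of the 24 listed genes passed it. By this filter the list was thus not lower than all genes, and the share of all genes under 1 CPM is not given here. Whether the factors repress the listed genes in these cells was not tested. Of 24 epithelial genes, 17 stayed under 1 CPM in every library, among them CDH1, the gene of E-cadherin, with 0, 0, 1 and 0 counts in core replicates 1 and 2 and invasion zone replicates 1 and 2. CDH1 was singled out after its values were seen. Of the 24 genes 9 were tested, with a median log2 change of -0.76, and 2 were called lower and 0 higher with the block. KRT7, a keratin of simple epithelia, had 17.7 and 12.4 CPM in the core and 8.25 and 4.71 CPM in the invasion zone (log2 fold change -1.19, adjusted p = 0.151, and 0.000854 with the block). MUC1, a membrane mucin, had 36.6 and 15.1 CPM in the core and 12.7 and 2.78 CPM in the invasion zone (log2 fold change -1.68, adjusted p = 0.235, and 0.000268 with the block). JUP, which encodes the junction protein plakoglobin, reached at most 0.615 CPM, with a log2 fold change of -1.91 and an adjusted p of 0.281. The most abundant of the list per length were KRT18, at 118 to 158 CPM with a log2 fold change of -0.19, and PKP3, at 47.1 to 71.0 CPM with -0.39. Of 14 factors that keep the epithelial state, 12 stayed under 1 CPM in every library. The exceptions were KLF4, at 8.62 to 18.9 CPM, and KLF5, at 20.5 to 30.4 CPM, and 0 of the 4 tested were called with the block. The other two tested, GRHL1 and EHF, reached at most 0.934 and 0.589 CPM.

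Of 24 mesenchymal markers other than VIM 19 were tested, with a median log2 change of -0.83, and 1 was called higher and 7 lower with the block, while the zones did not overlap for 13 of 19 that were lower and 4 that were higher in the invasion zone, beside 30.3% and 28.1% of all genes. PDGFRB, a receptor of mesenchymal cells, had 20.1 and 16.8 CPM in the core and 6.14 and 1.68 CPM in the invasion zone (log2 fold change -2.15, adjusted p = 0.135, and 0.000633 with the block). MMP2, a gelatinase, had 1260 and 750 CPM in the core and 441 and 185 CPM in the invasion zone (log2 fold change -1.68, adjusted p = 0.146, and 5.17e-05 with the block). COL3A1 reached at most 1.98 CPM, with a log2 fold change of -2.30 and an adjusted p of 0.161 (0.00658 with the block). SPARC was the most abundant of the list per length and had 4670 and 3500 CPM in the core and 3190 and 1890 CPM in the invasion zone (log2 fold change -0.69, adjusted p = 0.234, and 0.00046 with the block, under 2-fold). CDH2, the gene of N-cadherin, had 0 and 2 counts in the core and 9 and 3 in the invasion zone and was also singled out after its values were seen, so that neither classical cadherin of the switch from E-cadherin to N-cadherin exceeded 0.252 CPM.

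**Figure D4:**
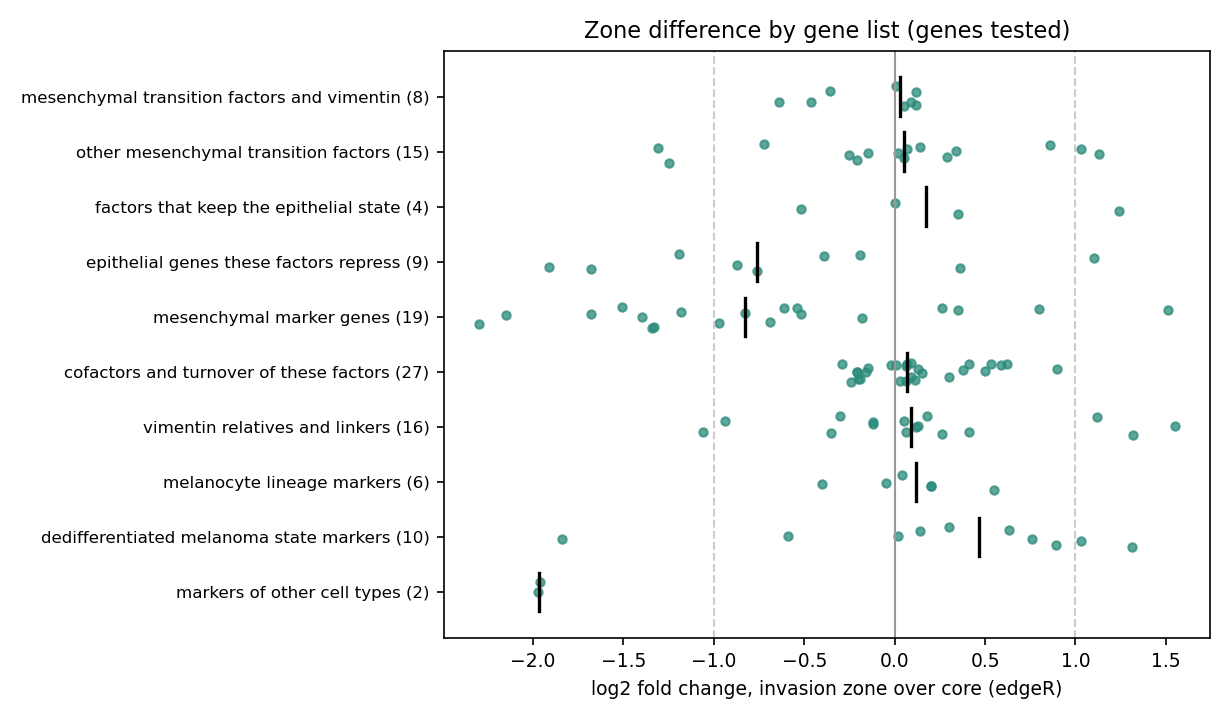
Invasion zone relative to core, as log2 fold change in edgeR, for each tested gene of the lists, with the number of genes tested in parentheses and a black line at each median. Dashed lines mark 2-fold. The 8 genes centre on 0.03, and the 19 mesenchymal markers have a median of -0.83.

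Cofactors of the factors and proteins that control their turnover showed no calls. All 27 that had a row were tested, with a median log2 change of 0.07, and 0 were called in either direction with the block, and 8 passed as higher and 2 as lower without the fold minimum, beside 19.4% of all genes in each direction. EZH2, the Polycomb methyltransferase, had 11.4 and 17.7 CPM in the core and 24.7 and 29.4 CPM in the invasion zone (log2 fold change 0.90, adjusted p = 0.152, and 0.00111 with the block). PAK1, a kinase, had a log2 fold change of 0.62 and FBXO45, a ubiquitin ligase subunit, one of 0.59, with adjusted p of 0.157 and 0.188. With the block these were 0.00198 for PAK1 and 0.00138 for FBXO45. The most abundant per length were HDAC1, a histone deacetylase, at 253 to 361 CPM and AKT1, a kinase, at 393 to 437 CPM, with log2 fold changes of -0.24 and 0.07.

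Among 21 relatives and partners of vimentin, 16 were tested, with a median log2 change of 0.09, and 3 were called higher and 0 lower with the block. These were AURKB and PLK1, mitotic kinases that phosphorylate vimentin, and LMNB1, a nuclear lamin. AURKB had 18.5 and 48.6 CPM in the core and 77.1 and 118 CPM in the invasion zone (log2 fold change 1.55, adjusted p = 0.157), PLK1 had a log2 fold change of 1.32 (adjusted p = 0.185) and LMNB1 one of 1.12 (adjusted p = 0.368). LMNA, the lamin of A type and most abundant of the list per length, had 1730 to 2310 CPM and a log2 fold change of 0.18, and YWHAB, which encodes a 14-3-3 protein, 668 to 981 CPM and 0.26.

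Markers of melanoma states were described last. Of 11 melanocyte lineage markers 6 were tested, and 0 were called with the block. RAB27A, which moves pigment granules, had 23.9 and 25.1 CPM in the core and 20 and 17.0 CPM in the invasion zone (log2 fold change -0.40, adjusted p = 0.235, and 0.0456 with the block). TYRP1 and PMEL, pigment cell proteins, had log2 fold changes of 0.55 and 0.20 at their low levels. Of 12 markers of the dedifferentiated state 10 were tested, with a median log2 change of 0.47, and 2 were called higher and 1 lower with the block. TNFRSF12A, a receptor of the TNF family, had 381 and 663 CPM in the core and 955 and 1630 CPM in the invasion zone (log2 fold change 1.31, adjusted p = 0.147, and 3.25e-05 with the block). WNT5A, a secreted ligand, had 180 and 81.3 CPM in the core and 54.1 and 17.9 CPM in the invasion zone (log2 fold change -1.84, adjusted p = 0.165, and 4.77e-05 with the block). FOSL1 is also on this list. CD44, the hyaluronan receptor, had 2830 to 3300 CPM and a log2 fold change of 0.14. CD14 and PECAM1, listed as markers of other cell types, had log2 fold changes of -1.97 and -1.96 (adjusted p = 0.142 and 0.208) and were both called lower with the block (adjusted p = 0.0147 and 0.000461), while CDH5 and VWF, further endothelial markers, had at most 0.427 CPM.

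For each of the 8 genes the most similar profile was sought among the 106 tested genes of the other lists. The measure was the root mean square difference of log2 CPM, with 0.5 CPM added before the log, centred on the mean of the 4 libraries. With 4 libraries this is a description. ZEB1 lay nearest to ROCK2 (0.025) and SMAD4 (0.044), SNAI2 to PPP2R5A (0.036) and CSNK1E (0.047), and PRRX1 to FOXC1 (0.051) and MSX1 (0.068). ZEB2 lay nearest to FBXL14 (0.059) and PAX3 (0.073), TWIST1 to KRT8 (0.070) and RAB27A (0.121), and TWIST2 to FBXO11 (0.107) and SIN3A (0.108). VIM lay nearest to RCOR1 (0.082) and CTBP1 (0.084), and SNAI1 to USP27X (0.084) and TCF12 (0.101). The added 0.5 CPM is close to the levels of SNAI1 (0.587 to 1.01 CPM) and flattens its profile, which limits its matches.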

How the data were processed

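The deposited table holds raw counts per gene. To make them, the authors filtered out rRNA (Bowtie), aligned to hg38 (STAR) and counted unique alignments (HTSeq-count). Not given in the sources used here: versions, annotation release, strand setting. Columns were assigned by the zone and replicate in their names, and 2 repeated rows without counts were left out.

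In R 4.3.3, genes were kept by filterByExpr (2 or more libraries with 10 counts, scaled to the median library, and 15 in total), TMM factors were computed, and the zones were compared with the quasi-likelihood test of edgeR 4.0.16 across all genes, without a replicate term. Standard errors are the estimate divided by the square root of F. DESeq2 1.42.0 and limma 3.58.1 (voom), other scalings, filters and thresholds, a replicate block and each library left out were alternatives. The procedure was tested on simulated data. As a pairing check, deviations from the zone mean correlated at 0.584 across genes between the core and invasion zone libraries of replicate 1. With 2 libraries per zone, replicate 2 gives the same value by construction. Both replicate 1 libraries were also deeper, and the part of depth in this value was not tested. Lengths and positions came from GENCODE release 44, which holds 98.1% of the identifiers.

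The members and lists were chosen with earlier results of these data known. Named genes were all members, from each list up to 4 called genes or otherwise the 3 largest changes, and the 2 highest levels per length. The listed gene DUB3 matched no row. A further gene that this rule names is not reported here. Depth was 11789243 to 37591782 counts, and exact intervals and limits of a count of 0 cover counting error only.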

Additional observations from a re-analysis of the deposited data

How the results depend on the processing

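Over the 17 alternatives, SNAI1, TWIST1 and TWIST2 had a negative log2 fold change in every setting in which they were tested. Settings that changed only the p or fold threshold reused the fold changes of the main or the blocked fit, so their signs could not differ. The values ran from -0.73 to -0.47 for TWIST1 and from -0.68 to -0.07 for TWIST2. With all 4 libraries kept, adjusted p in edgeR, DESeq2 and limma voom ran from 0.00271 to 0.135 for TWIST1 and from 0.00934 to 0.491 for TWIST2. TWIST2 was smallest when core replicate 1 (-0.07) or invasion zone replicate 2 (-0.11) was left out. After the GC and length correction with the replicate block, TWIST1 had -0.47 (adjusted p = 0.00421) and TWIST2 -0.21 (adjusted p = 0.159). The sign of genes near 0 turned. ZEB1 (0.01) was -0.02 with at least 10 counts in every library, -0.02 with upper-quartile scaling, and ranged from -0.01 to 0.04 with each library left out. SNAI2 (0.05) was -0.01 with the GC and length correction and ranged from -0.06 to 0.18 with each library left out, ZEB2 (0.09) from -0.10 to 0.27, PRRX1 (0.12) from -0.07 to 0.28 and VIM (0.12) from -0.14 to 0.33. The cause was not tested.

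The number of the 8 genes called was 0 under each alternative set in advance and 2 with the replicate block and no fold minimum, which was chosen after seeing the data. Over all genes, 0 were called higher and 0 lower by edgeR, also with RLE or upper-quartile scaling, with 10 counts in every library, with no fold minimum and in limma voom. Higher and lower genes numbered 454 and 909 at an unadjusted p, 427 and 846 without a low count filter, 354 and 548 in DESeq2, 427 and 731 in DESeq2 with the replicate block, 530 and 1097 in edgeR with the replicate block, 575 and 1088 in limma voom with it, 775 and 1006 with the block plus correction for GC and length, and 3010 and 3009 with the block and no fold minimum. Of the calls with the block 32.6% were higher, against 43.5% with the correction. With each library left out there were 13 to 632 higher and 125 to 1137 lower genes, the fewest without core replicate 1 (13 and 125). Leaving out core replicate 2 gave 632 and 665, the first invasion zone library 576 and 1137, and the second 212 and 347. These fits take the spread of the single remaining library from the other zone. Members counted as expressed were 8 by the count filter and 7 by 1 CPM in every library. Depth limits only SNAI1, with 9 to 36 counts a library.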
